A study of Mus musculus with 2 samples.

Results

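R-spondins are secreted proteins that raise the response of a cell to Wnt ligands. They bind the receptors Lgr4, Lgr5 and Lgr6 together with the membrane ubiquitin ligases Rnf43 and Znrf3, which otherwise remove Frizzled receptors from the cell surface, and binding clears the ligases and leaves more Frizzled in place. Lgr5 and Lgr6 are widely used as marks of epithelial stem and progenitor cells, among them those of the hair follicle, and Wnt signalling is needed for both tooth and hair development.

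The 9 genes described here were Lgr4, Lgr5, Lgr6, Rspo1, Rspo2, Rspo3, Rspo4, Rnf43 and Znrf3. They were chosen by name, as the non-control probes whose gene name on the array was one of the 9, and their measured values played no part in the rule. Earlier results of these data were known when the 9 genes were chosen. The rule found 11 probes among the 33184 probes that carry a gene name, and 9 of 24103 named genes. The study asked what the transcription factor Sox21 does in the tooth, and here the normal tooth was set against the normal skin. Both groups were wild-type mice at postnatal day 0, with no treatment named in the labels, and no sex or number of animals was given. The study's methods name C57BL/6J as its wild-type strain. The tooth group was 1 array of total RNA from tooth and the skin group was 1 array of total RNA from skin. Both were single-colour (Cy3) Agilent mouse arrays on the same slide. Because each tissue had a single array, the variation among animals was not measured and nothing could be tested, and every difference below is one between these 2 arrays.

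On both arrays the tissue label was borne out by marker genes. All 5 enamel genes were well above background in tooth and none of them in skin, led by the enamel matrix gene Amelx, which was at least 16383-fold higher in tooth. All 5 epidermal genes and all 5 hair follicle keratins were higher in skin, among them Lor, a cornified envelope protein (difference of 9.11, log2), and Krt27 (5.22). The tooth array had 56.7% of its 55681 probes well above background and the skin array 52.5%.

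The probes are 60 bases long, and the last 30 bases of the 5 probes that carry the widest differences, together with the second Lgr5 probe, are shown because the results below rest on the RNA that these letters captured. They are printed in lower case, 5′ to 3′, as the array file gives them, with AATAAA, the main polyadenylation signal, in capitals.
Rspo2: ttggcaggttctaattgcattatttccctg
Rspo3: taggagagaaagccaccacAATAAAtatat
Rspo4: aagactcccagctacttttcaaagaaagat
Lgr5 (brighter probe): ccagaatttgcttttctactgggctcaaaa
Lgr5 (dimmer probe): taaaatacagatgtatacttacagacagcc
Lgr6 (brighter probe): gaaggaccatgagtctttgactggtcatag
The signal was searched on the printed strand only, and it stood in the last 30 bases of 1 of the 11 probes, that of Rspo3, against 8.16% of all 55681 probes. Among the 55 pairs of the 11 probes the longest shared run was 9 bases, between Rspo1 and Rspo4. No probe of another gene shared a run of 25 bases with any of the 11.

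Of the 9 genes, 5 were at least 2-fold higher in skin (Lgr4, Lgr5, Lgr6, Rspo3 and Znrf3), where 14.2% of the 17288 named genes tested were. Another 2, Rspo2 and Rspo4, were at least 2-fold higher in tooth, where 15.5% of all genes were. The remaining 2, Rspo1 and Rnf43, differed by less than 2-fold. A gene entered these counts when 1 array or both gave its brightest probe a signal well above background. This held for all 9 genes, of which 7 passed on both arrays, 2 in tooth only and 0 in skin only (4.25% of all genes). The median difference over the 9 genes was 1.16, and that over all genes was -0.04. Differences are log2 values of skin minus tooth after each array was scaled to its 75th percentile. In whole tissue, fewer cells of a type and less RNA per cell cannot be told apart.

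**Figure D1:**
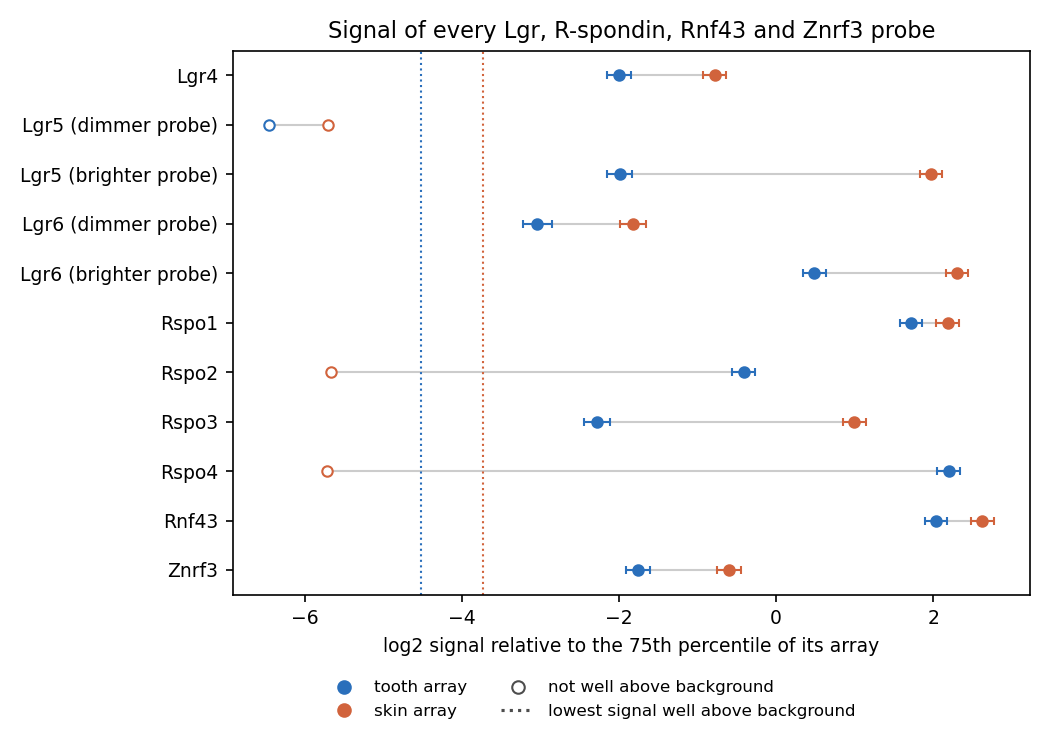
Signal of each of the 11 probes on the tooth array (blue) and the skin array (orange), as log2 relative to the 75th percentile of its own array; bars are the extraction software's error within an array, open circles are values not well above background, and dotted lines are the lowest signal well above background (-4.52 for tooth, -3.73 for skin). Rspo4 and Rspo2 lie above the line on the tooth array only. By at least 2-fold, the skin value lies to the right of the tooth value for the brighter Lgr5 probe, Lgr6, Lgr4, Rspo3 and Znrf3. It also lies to the right for Rspo1 and Rnf43, by less than 2-fold. The dimmer Lgr5 probe is an open circle on both arrays.

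The R-spondins are the ligands. Of the 4, Rspo2 and Rspo4 were higher in tooth, Rspo3 was higher in skin, and Rspo1 is given no direction. Rspo4, whose loss leads to missing nails in people, had an intensity of 1962 ± 196 on the tooth array, the error being the software's estimate within an array. On the skin array its value was 5.24, a surrogate that the software writes for spots too dim to measure. The probe lay at chr2:151700345-151700404 on the plus strand (mm9). The tooth level of Rspo4 was at least 60.9 times as high, a bound set by the lowest signal well above background on the skin array. Rspo4 was thus measured in tooth and not above background in skin.

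Rspo2, a ligand required for normal limb and lung development, had an intensity of 322 ± 32.6 in tooth and a surrogate of 5.43 in skin, at chr15:42852727-42852786 on the minus strand. It was at least 9.99-fold higher in tooth. Genes well above background in tooth only made up 7.94% of those tested, 1373 genes in all. Among them 18 had a larger bound than Rspo4 (1.31%) and 97 a larger bound than Rspo2 (7.06%). Both ligands were also below the more lenient call, signal significantly above background, in skin. With the normexp background correction, which compresses dim signals, the tooth excess was 18.1-fold for Rspo4 and 3.43-fold for Rspo2, smaller than these bounds and in the same direction.

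Rspo3, a ligand known for its role in vessel and placenta formation, ran the other way. Its intensity was 88.1 ± 10.1 in tooth and 552 ± 55.4 in skin, at chr10:29172930-29172989 on the minus strand. The scaled level went from -2.28 in tooth to 0.998 in skin, a difference of 3.28 ± 0.22, or 9.70-fold. Only 341 of the 15181 genes measured on both arrays (2.25%) had a larger excess in skin. Probes of like brightness that were spotted many times had a median SD among spots of 0.14 in tooth and 0.08 in skin (log2), which is technical scatter within an array and says nothing of the spread between animals.

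Rspo1, a ligand required for ovary development, was bright in both tissues, at 1406 ± 141 in tooth and 1256 ± 126 in skin (chr4:124686270-124686329, plus strand). The intensity was lower in skin and the scaled level was higher, 1.72 against 2.19, because the 75th percentile of the skin array was 276 against 428 for tooth. Its difference was 0.47 ± 0.20, or 1.38-fold, and it became -0.15 when the arrays were scaled to the spike-in RNAs instead, so no direction is given for Rspo1.

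Differences of differences between the ligands do not depend on a scaling by a single factor per array, since such a factor cancels. They do depend on the background correction. Quantile normalization is not a single factor per array, and with it Rspo3 was at 3.22 and Rspo1 at 0.50. The ratio of skin to tooth was 7.01-fold larger for Rspo3 than for Rspo1 (2.81 ± 0.30, log2). Against Rspo2 the ratio for Rspo3 was at least 96.9-fold larger, and against Rspo4 at least 590.5-fold. For Rspo1 the ratio was at least 13.8-fold larger than for Rspo2 and at least 84.3-fold larger than for Rspo4. With normexp all 5 were smaller in the same direction, 4.47-fold for Rspo3 over Rspo1, 19.6-fold and 103.3-fold for Rspo3 over Rspo2 and Rspo4, and 4.38-fold and 23.1-fold for Rspo1 over Rspo2 and Rspo4, so the bounds hold only for the software's own background subtraction. The ligand make-up on the tooth array therefore held Rspo1, Rspo2, Rspo3 and Rspo4, while the skin array held Rspo1 and Rspo3 and had neither of the others well above background.

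All 3 receptors had their higher scaled signal in skin. Lgr5, the receptor used to mark cycling stem cells in several epithelia, had an intensity of 107.5 ± 11.6 in tooth and 1084 ± 109 in skin with its brighter probe (chr10:114887403-114887462, minus strand). The scaled level went from -1.99 to 1.97, a 15.6-fold difference (3.97 ± 0.21). A larger excess in skin was seen for 242 of 15181 genes (1.59%). The spots of repeated probes of like brightness had a median SD of 0.13 in tooth and 0.07 in skin.

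The second Lgr5 probe lay 13.3 kb away, at chr10:114900686-114900745, and was listed under an Ensembl transcript rather than a RefSeq one. It read surrogates of 4.88 in tooth and 5.29 in skin, was not above background by either call, and gives no difference. The Lgr5 value therefore rests on 1 probe, which had 1 spot on each array, as did the probes of the other Lgr, R-spondin and ligase genes.

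Lgr6, a receptor known from stem cells of the upper hair follicle, was read by both of its probes. The brighter one (chr1:136880538-136880597, minus strand) gave 599 ± 60.001 in tooth and 1363 ± 136 in skin. Its difference was 1.82 ± 0.20 (3.53-fold). The dimmer one (chr1:136883782-136883841), 3.24 kb away, gave 52.0 ± 6.64 and 78.0 ± 9.01, a difference of 1.22 ± 0.25 (2.32-fold). Both probes were higher in skin, and their differences were 0.60 apart. The dimmer probe was listed under a RefSeq transcript and the brighter one was not.

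Lgr4, the most widely expressed receptor of the family, gave 106.9 ± 11.6 in tooth and 160.5 ± 16.8 in skin (chr2:109853567-109853626, plus strand). The difference was 1.22 ± 0.22, or 2.33-fold. Among genes measured on both arrays 9.04% had a larger excess in skin than Lgr4, 5.45% a larger one than Lgr6 and 1.59% a larger one than Lgr5. The ratio of skin to tooth for Lgr5 was 6.72-fold that of Lgr4 (2.75 ± 0.30, log2) and 4.43-fold that of Lgr6 (2.15 ± 0.29). Lgr6 and Lgr4 lay closer, at 1.52-fold (0.60 ± 0.30), no more than the gap between the Lgr6 probes.

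**Figure D2:**
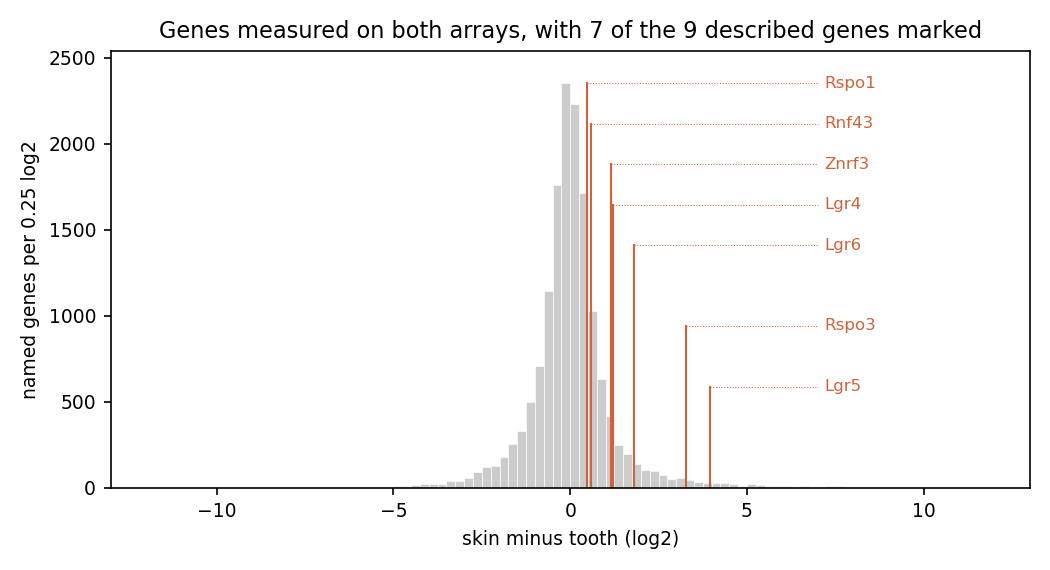
Distribution of the skin minus tooth difference (log2) over the 15181 named genes measured on both arrays, as genes per bin of 0.25, with the 7 described genes measured on both arrays marked by orange lines whose height has no meaning. Lgr5 (3.97) and Rspo3 (3.28) lie in the right tail, and Rspo1 (0.47) and Rnf43 (0.59), whose sign turns under spike-in scaling, lie in the body of the distribution.

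The ubiquitin ligases act against the pathway and are themselves induced by it. Rnf43 was bright in both tissues, at 1753 ± 175 in tooth and 1702 ± 170 in skin (chr11:87548958-87549017, plus strand), with a difference of 0.59 ± 0.20, or 1.504-fold. Under spike-in scaling it was -0.03, so no direction is given for Rnf43. Znrf3 (chr11:5180918-5180977, minus strand) had an intensity of 127 ± 13.4 in tooth and of 182 ± 18.8 in skin. The skin level was higher by 1.16 ± 0.21, or 2.23-fold. The ratio of skin to tooth was 1.48-fold larger for Znrf3 than for Rnf43 (0.57 ± 0.29, log2).

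Lgr4 and Znrf3 passed 2-fold by little and kept their direction in every alternative, but not their size. They were at 0.89 and 0.93 with normexp, 0.97 and 0.91 with a median shift, and 0.60 and 0.53 with spike-in scaling, which leaves 3 of the 9 genes at least 2-fold higher in skin under each of these settings. Across the 9 alternatives that apply to single probes Lgr5 ranged from 3.25 to 4.01, Rspo3 from 2.51 to 3.32 and the brighter Lgr6 probe from 1.20 to 1.86, all above 2-fold. The dimmer Lgr6 probe ranged from 0.59 to 1.26 and lay under 2-fold with normexp (0.87), a median shift (0.97) and spike-in scaling (0.59). Lgr6 thus stayed among the 3 by its brighter probe only.

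**Figure D3:**
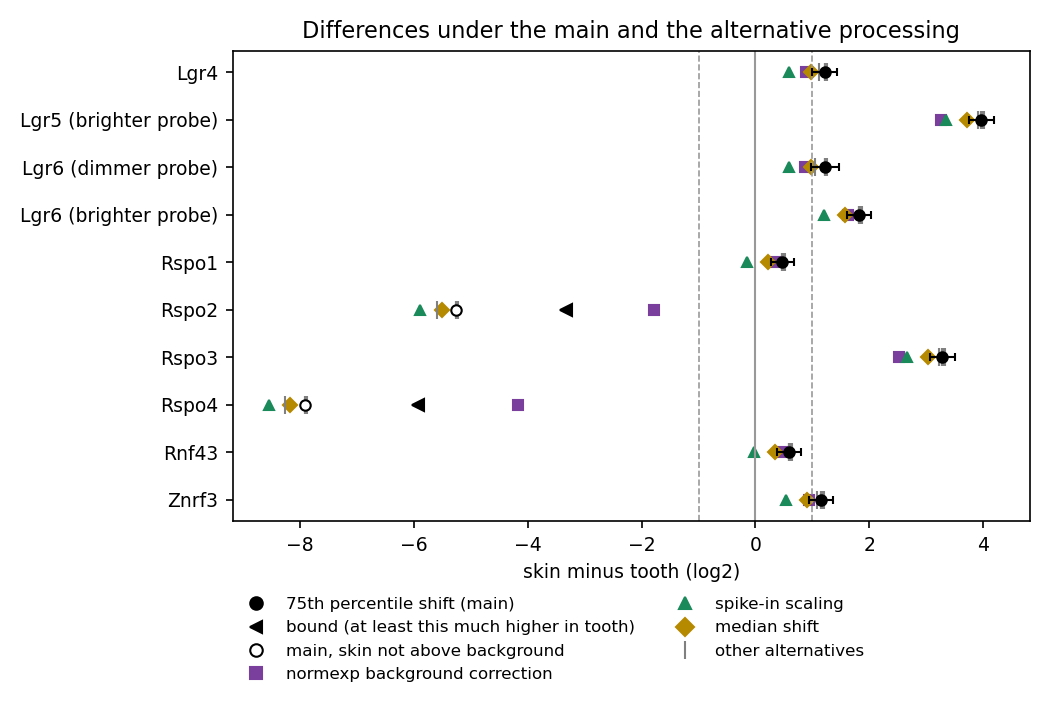
Skin minus tooth difference (log2) of each probe under the 75th percentile shift (black, with the software's error), normexp (purple), a median shift (ochre), spike-in scaling (green) and the other alternatives (grey ticks); triangles pointing left are the bounds for Rspo2 and Rspo4, open circles their differences with the skin surrogate, and dashed lines mark 2-fold. Rspo1 and Rnf43 fall to -0.15 and -0.03 under spike-in scaling, and the other probes stay on their side of 0.

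The rest of the Wnt pathway is given from fixed lists, with the same 14.2% and 15.5% of all genes as the background. Of 19 Wnt ligands, 16 were tested, of which 5 had their higher signal in skin by at least 2-fold and 8 in tooth, with a median of -0.53. One of the 5, Wnt2, passed the background call in skin alone with a bound of 1.91-fold, so 4 remain when dim values are set to their bound. The median turned to 0.19 without a filter on dim probes or with the lenient call, and was 0.0041 over genes above background on both arrays. Wnt2b, Wnt8a and Wnt9b were well above background in neither tissue. Wnt3 (4.63) and Wnt16 (3.67) had the largest measured excess in skin, and a second Wnt16 probe passed the background call in skin alone. Wnt7a (-2.79) and Wnt6 (-2.02) had the largest measured excess in tooth, and Wnt3a, well above background in tooth only, was at least 6.07-fold higher there.

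Frizzled receptors bind the Wnt ligands with the co-receptors Lrp5 and Lrp6. Of these 12 genes, 1 passed 2-fold towards skin and 3 towards tooth, with a median of -0.18. Fzd10 (3.29) was the one in skin, and Fzd9 (-1.97) and Fzd3 (-1.48) had the largest excess in tooth. Among 10 transducers inside the cell, from Dvl1 to the DNA-binding Tcf7l2, 1 passed 2-fold towards skin and 0 towards tooth, with a median of 0.01. That gene was the kinase Csnk1a1 (1.05), whose second probe gave 0.49.

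Of 13 target and feedback genes, 5 passed 2-fold towards skin and 1 towards tooth, with a median of 0.21. Sp5 (3.83), a transcription factor induced by Wnt signals, and Apcdd1 (1.84), a membrane inhibitor of the pathway, had the largest excess in skin. Dkk1 (-4.82), a secreted inhibitor that binds Lrp5 and Lrp6, was the one in tooth. Direct targets and feedback genes thus lay on both sides, with more past 2-fold towards skin than towards tooth. The ligands also lay on both sides, with 5 past 2-fold in skin and 8 in tooth. Under spike-in scaling, 3 target and feedback genes were past 2-fold in skin and 4 in tooth.

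**Figure D4:**
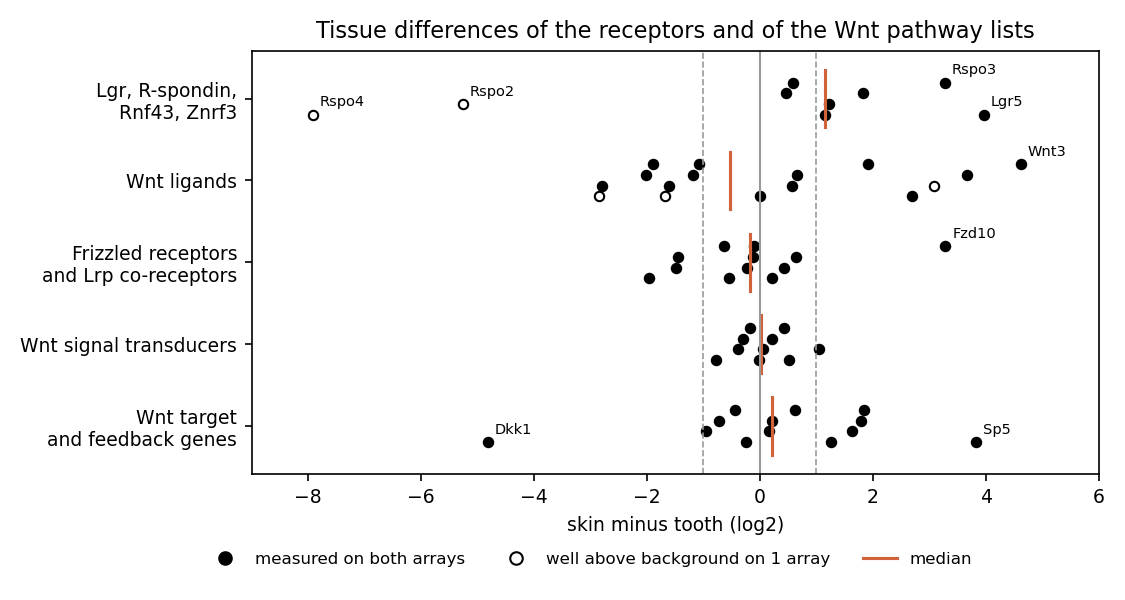
Skin minus tooth difference (log2) of each tested gene (circles) in the 9-gene set and the 4 Wnt lists, with the list median as an orange bar and dashed lines at 2-fold; open circles are genes well above background on 1 array, plotted at the measured value and not at their bound. The medians are 1.16, -0.53, -0.18, 0.01 and 0.21 from top to bottom. The 0.01 and 0.21 turn negative under a median shift and spike-in scaling. The 0.01 also does so with normexp (-0.0489) and with the mean of all probes of a gene (-0.0094). The -0.53 turns to 0.19 without a filter on dim probes.

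A list of hair follicle stem cell genes was set beside the receptors. Of its 7 genes, 4 passed 2-fold towards skin, where 14.2% of all genes did, and 0 towards tooth, where 15.5% did. The median was 1.91. The largest were the transcription factor Lhx2 (8.41) and Lrig1 (4.57, second probe 4.84), an inhibitor of growth factor receptors. The other 3 differed by less than 2-fold, Sox9 (0.40) towards skin and Gli1 (-0.18) and Cd34 (-0.47) towards tooth.

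Markers of other cell types moved with the same tissue contrast. Their levels, summed as scaled intensity relative to the 75th percentile of each array, are given beside the receptors because whole tissue was measured. For the counts here and in the next paragraph, the shares over all genes were 14.2% towards skin and 15.5% towards tooth. The 5 hair follicle keratins summed to 2.33 in tooth and 760 in skin, and the 5 epidermal genes to 6.002 and 3760. All 6 skeletal muscle genes were at least 2-fold higher in skin (8.79 against 88.3, Myh8 3.49, another probe 0.94), as were all 5 melanocyte genes (2.30 against 173, Dct 6.10) and the 4 tested adipocyte genes (0.684 against 13.1, Fabp4 4.07), with Lep above background in neither.

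On the tooth side, the 5 enamel genes summed to 2153 in tooth and 0.0954 in skin. The 5 odontoblast and bone genes were all at least 2-fold higher in tooth (308 against 0.505, Ibsp -7.43), and 4 of them were well above background in tooth only. Of 5 dental mesenchyme genes 4 were higher in tooth (23.1 against 14.1), while the brightest Lhx6 probe was at 0.09 and a dimmer Lhx6 probe passed the background call in tooth alone. Of 3 tested cartilage genes 2 were higher in tooth (3.71 against 0.347), with Col2a1 at least 43.3-fold higher there and Matn1 above background in neither. Schwann cell genes summed to 8.38 in tooth and 6.67 in skin, with Mbp at -1.02 and its other probes at -0.27 and 0.03. Of 4 endothelial genes 2 were at least 2-fold higher in tooth and 0 in skin, with a median of -0.83. They were Cdh5 (-2.70) and Tek, which passed the background call in tooth alone (at least 2.77-fold). The sums of the 4 genes, 30.6 in tooth and 38.1 in skin, ran the other way, since Kdr was by far the brightest, and its 2 probes gave 0.43 and -2.19. The part of these cell types in the Lgr and R-spondin differences was not tested.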

How the data were processed

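Total RNA from tooth and skin was hybridised to 1 Agilent array each, and the labels gave postnatal day 0, whereas the study's methods name a later stage; the labels were followed. The deposited spot values were intensities from Agilent Feature Extraction 10.7.3.1 on a linear scale, background-subtracted and detrended by the software, which wrote surrogates for 22.8% of tooth and 25.5% of skin spots. Per the file headers, other columns held the software's error, its flags (above background, outlier, saturated), the probe sequence and the mm9 position. The authors also deposited a ratio of each processed intensity to 1 factor per array (430.7 tooth, 274.5 skin), used as an alternative.

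Outlier spots (137 and 146) were left out, spots of a probe were averaged on the log2 scale, and each array's 75th percentile over non-control probes (428 and 276) was subtracted. A probe counted as above background when over 50% of its spots were called well above it. Where that held on 1 array only, the bright value was set against the higher of the dim array's lowest such signal (-4.52 tooth, -3.73 skin, log2) and the probe's own value. The probe with the highest mean stood for its gene. Of each array's 308 negative-control spots, 0 (tooth) and 1 (skin) were called well above background, and no spot was saturated. The software's error covers 1 array only, and the number of arrays limits the precision. Accessions matched 27235 of 33184 named probes (82.1%) in a RefSeq table, used only for an alternative. Exon, intron and UTR annotation of the probes was not used here. Summing, counting, scaling and quantile normalization used Python 3.11.15, numpy 2.4.6 and pandas 2.3.3. Normexp (offset 50) used limma 3.58.1 in R 4.3.3, and the steps were tested on simulated data. A further gene list is not reported here. The 9 genes and the gene lists were chosen with earlier results of these data known. Named from each pathway list were the 2 largest differences per direction of at least 2-fold among genes above background on both arrays, and any gene above background on 1 array with a bound of at least 4-fold; from each cell type list, the gene with the highest mean signal.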

Additional observations from a re-analysis of the deposited data

How the results depend on the processing

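No paired analysis was possible because each tissue had 1 array; for the same reason no array could be left out and the slide could not be a block. Of 12 alternatives, the count of the 9 genes at least 2-fold higher in skin stayed at 5 in 9 and fell to 3 in 3 (normexp, median shift and spike-in scaling), with medians of 0.89, 0.91 and 0.53. Settings that only changed the background filter or set dim values to their bound could not change this skin count. All 9 genes already passed the background call, and the 5 passed it on both arrays. The authors' value table moved the median gene by only 0.018. The tooth count stayed at 2 in 11 and was 0 when only genes above background on both arrays were kept. A median shift and spike-in scaling moved the median gene by -0.25 and -0.62. Over all genes, 2455 passed 2-fold towards skin and 2675 towards tooth, against 1565 and 5599 with spike-in scaling, 2010 and 3478 with a median shift, 1738 and 1668 with normexp, and 3647 and 2867 with no filter on dim probes. With normexp the median was -0.19 for Wnt ligands and 1.68 for hair follicle stem and germ cell genes, and 0 transducers were at least 2-fold higher in skin. With a median shift the medians were -0.78 for Wnt ligands, -0.43 for Frizzled and Lrp receptors, -0.24 for transducers, -0.0407 for target and feedback genes and 1.66 for hair follicle stem and germ cell genes; transducers numbered 0 in skin and 1 in tooth, and target genes 2 in tooth. With spike-in scaling the medians were -1.16, -0.80, -0.61, -0.41 and 1.28 in that order; Frizzled and Lrp receptors numbered 5 in tooth, transducers 0 in skin and 2 in tooth, target genes 3 in skin and 4 in tooth, and hair follicle stem and germ cell genes 1 in tooth. The Wnt ligand median was 0.19 without a filter on dim probes and with the lenient call, and 0.0041 with genes above background on both arrays only. With the mean of all probes of a gene, 0 transducers were at least 2-fold higher in skin. The cause of these shifts was not tested. The other 183 recomputed counts and medians stayed near their main value, the medians within the software's error of a difference. Dim signals limit Rspo2, Rspo4 and the second Lgr5 probe, for which no level near background was resolved.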
